A study of Mus musculus with 20 samples.

Results

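Interleukin 1 and the inflammasome genes that process it were followed in the liver of mice on 4 diets. The rule that picks them is a list of names. They are the ligands Il1a, Il1b and Il18, the antagonist Il1rn, the receptor chains Il1r1 and Il1rap, the binding protein Il18bp, and the inflammasome genes Nlrp3, Pycard and Casp1. All 10 were measured, among 18193 genes that had at least 1 probe set naming them alone. Each gene was read from the brightest of its probe sets, that is, the one with the highest mean log2 signal over the 20 arrays.

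The arrays came from 20 male C57BL/6J mice, 1 liver and 1 Affymetrix whole-genome mouse array per mouse. Feeding began at 7 weeks of age, lasted 12 weeks and ended with a fast of 2 h. The NC group (5 mice) ate normal chow, CRF-1. The CL group (5 mice) ate a diet that held cholesterol at 1.25% and sodium cholate at 0.5% and drew 60% of its calories from fat, and which is used as a dietary model of non-alcoholic steatohepatitis (NASH). The CL + AX group (5 mice) ate the same diet with 0.02% astaxanthin, a carotenoid, and the CL + VE group (5 mice) ate it with 0.02% vitamin E. The CL diet and the chow differ in several ingredients at once, cholate included, so no value here belongs to fat or cholesterol alone. No mouse received a supplement on normal chow.

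Interleukin 1 alpha and interleukin 1 beta are inflammatory cytokines that bind the same receptor, IL-1R1, which signals once it pairs with the accessory chain IL-1RAP. IL-1 beta and IL-18 are made as inactive precursors. A danger signal sensed by NLRP3 assembles the adaptor ASC, the product of Pycard, with caspase-1 into the inflammasome, and caspase-1 then cuts the precursors. IL-1RA, the product of Il1rn, blocks IL-1R1, and IL-18BP captures free IL-18. In the liver these components are best known from Kupffer cells and other macrophages, while hepatocytes carry the receptor chains and answer IL-1 with acute-phase proteins. The arrays measured mRNA, so cutting of the precursors and release of the cytokines lie outside these values. In whole liver, more cells of a type and more RNA per cell cannot be told apart.

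The regions before the starts of Il1b, Il18bp, Pycard and Casp1 are shown because these 4 genes rose on the CL diet without overlap between the NC and CL mice, as did 8.07% of all genes. Each is the 250 bases before the annotated start, 5′ to 3′ on the strand of the gene, from RefSeq on GRCm38.p6. Il1b lies on the minus strand (chr2:129371140-129371389), Il18bp on the minus strand (chr7:102018233-102018482), Pycard on the minus strand (chr7:127993868-127994117) and Casp1 on the plus strand (chr9:5298267-5298516). Capitals mark matches to the 4 motifs searched on both strands: GAGGAA, the core bound by the myeloid factor PU.1, TTNNGNAA, a C/EBP motif, TGANTCA, an AP-1 motif, and the kappaB decamer. Overlapping matches were all counted.

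Il1b: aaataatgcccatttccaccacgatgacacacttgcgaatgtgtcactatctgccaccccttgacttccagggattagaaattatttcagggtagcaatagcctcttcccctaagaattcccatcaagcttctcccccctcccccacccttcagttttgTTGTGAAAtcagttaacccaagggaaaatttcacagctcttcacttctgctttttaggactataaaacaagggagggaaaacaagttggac
Il18bp: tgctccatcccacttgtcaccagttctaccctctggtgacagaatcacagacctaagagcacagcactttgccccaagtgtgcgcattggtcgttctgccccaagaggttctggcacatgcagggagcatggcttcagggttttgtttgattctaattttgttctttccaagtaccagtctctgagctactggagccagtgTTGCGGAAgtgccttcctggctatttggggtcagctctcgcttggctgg
Pycard: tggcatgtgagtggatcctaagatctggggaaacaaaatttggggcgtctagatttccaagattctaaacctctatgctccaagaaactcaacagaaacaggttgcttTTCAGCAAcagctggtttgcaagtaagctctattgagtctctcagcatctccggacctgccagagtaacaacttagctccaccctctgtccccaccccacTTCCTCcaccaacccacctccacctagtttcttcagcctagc
Casp1: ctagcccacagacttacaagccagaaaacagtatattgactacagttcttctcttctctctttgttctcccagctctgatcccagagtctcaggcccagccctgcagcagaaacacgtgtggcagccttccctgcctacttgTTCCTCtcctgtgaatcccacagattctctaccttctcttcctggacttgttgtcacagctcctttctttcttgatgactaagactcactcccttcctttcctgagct

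Il1b held 1 C/EBP match, between bases -91 and -84 from the start. Il18bp held 1 C/EBP match at -49 to -42, which reads as a match on both strands. Pycard held a C/EBP match at -142 to -135 and a PU.1 core at -42 to -37, and Casp1 held a PU.1 core at -108 to -103. Neither the kappaB decamer nor the AP-1 motif was found in these 4 windows. Of 32851 mouse promoter windows of this length, 36.8% held the C/EBP motif, 23.3% the PU.1 core, 7.25% the kappaB decamer and 6.75% the AP-1 motif. The kappaB decamer was found before 1 of the 2 starts of Nlrp3 and 1 of the 2 starts of Il1r1, and AP-1 before Il1a and 1 of the 3 starts of Il1rn. The windows of Il1rap and Il18 held none of the 4 motifs. These matches are descriptions of the letters and were not tested for binding.

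Of the 10 genes 5 were higher in CL than in NC and none was lower. Il1b, Il1rn, Il18bp, Pycard and Casp1 rose by 1.30 to 1.56 on the log2 scale, which is 2.46-fold to 2.95-fold. Il1a, Il1r1, Il1rap, Il18 and Nlrp3 differed by 0.29 to 0.47 and did not pass the test. The test was limma on quantile-normalized log2 signals in 1 model of the 4 groups, with Benjamini-Hochberg adjustment over 45037 probe sets and a threshold of 0.05. Of all genes, 12.0% passed it in the same direction. All 10 log2 fold changes were above 0, with a median of 0.88.

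The NC arrays also stood apart technically. The log2 ratio of 3′ to 5′ signal of the Dap control transcript was 2.96 ± 0.15 (SD, n = 5) in NC and 0.97 ± 0.16 in CL, 0.91 ± 0.10 in CL + AX and 1.07 ± 0.43 in CL + VE. That of Phe and that of Lys, further control transcripts, differed by 0.17 and 0.06 between NC and the rest, with p = 0.120 and 0.620 by the exact permutation test described next. The ratio of Gapdh was 0.57 ± 0.14 in NC and between -0.17 and -0.03 in the means of the other groups. Set against the other 15 arrays, the 5 in NC differed in Dap and Gapdh, and in Thr and Actb, by a two-sided exact permutation test, with p = 6.45e-05, the smallest value the design allows. The deposited signals were not scaled to a common level, with array medians of 13.0 to 18.8 in NC and 17.0 to 27.7 elsewhere, which is why they were quantile normalized. Diet and this technical difference cannot be told apart in any comparison with NC, and their parts in the results below were not tested. The CL + VE arrays stood apart in a smaller way: the Actb ratio was 1.66 ± 0.17 in NC and 1.43 ± 0.08 in CL + VE (1.32 to 1.51), above all arrays of CL (1.14 ± 0.09) and CL + AX (1.16 ± 0.07). Their array medians, 17.0 to 20.7, lay below the 26.4 to 27.7 of CL + AX. Hepatocyte markers were bright in every group, with means of 11.5 to 13.9 on the log2 scale for the 8 genes listed.

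**Figure D1:**
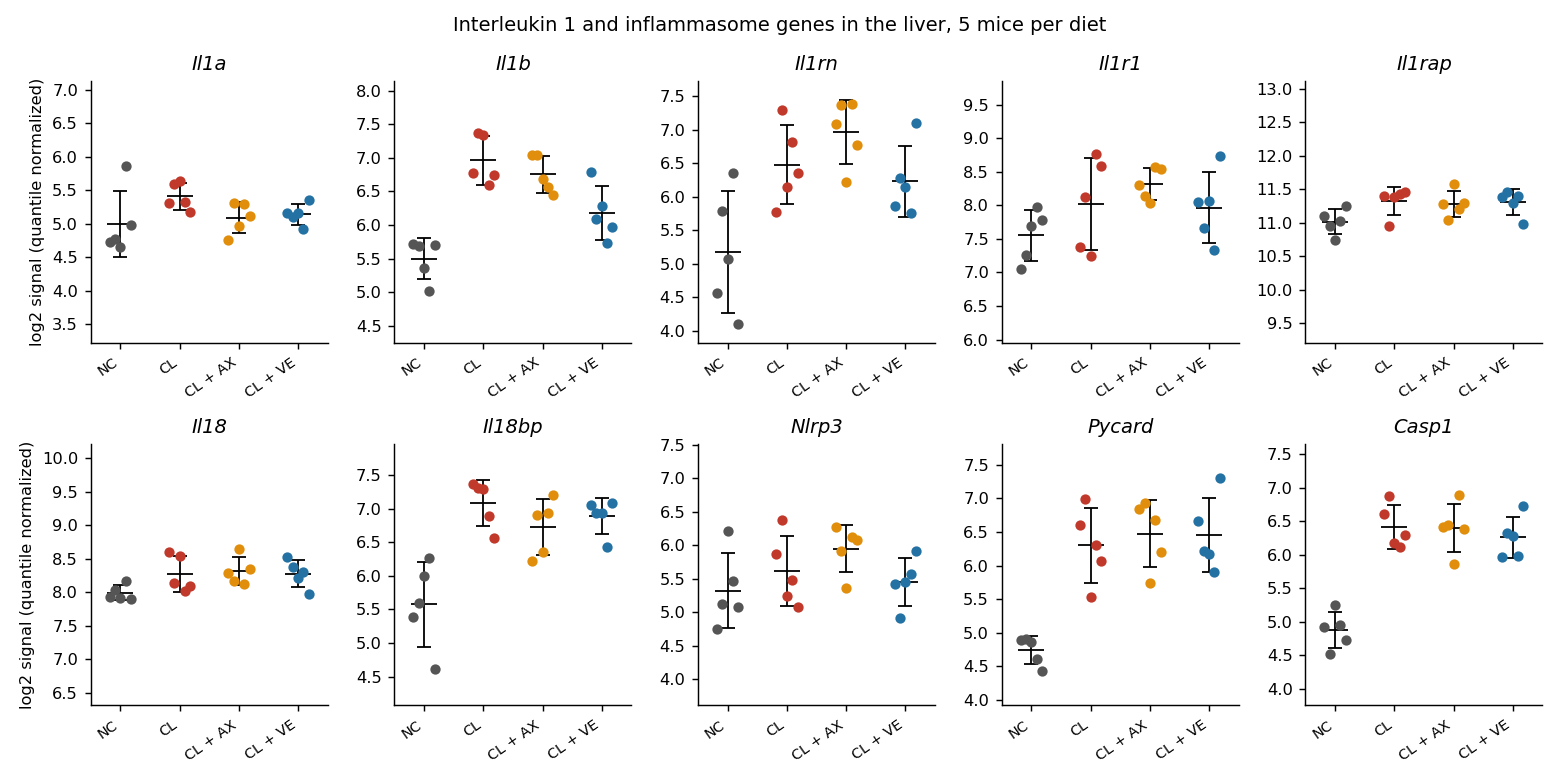
Quantile-normalized log2 signal (vertical axis, the same span in each panel) of the 10 genes by diet group. Each point is 1 mouse, the horizontal bar is the group mean and the whiskers are 1 SD (n = 5). The NC points of Il1b, Pycard and Casp1 lie below all points of the other 3 groups, while those of Il1a, Il18 and Nlrp3 overlap with them.

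Of the ligands, Il1b changed most. Its log2 signals were 5.72, 5.68, 5.36, 5.02 and 5.70 in the 5 NC mice. They were 6.77, 7.37, 7.34, 6.59 and 6.75 in the CL mice. Every CL mouse therefore lay above every NC mouse, a separation that 8.07% of all genes showed in this direction. The difference was 1.47 (SE 0.20, 2.77-fold, adjusted p = 2.26e-05 by limma). On the deposited linear scale the signals ran from 20.03 to 50.2 in NC and from 101 to 189 in CL.

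In the CL + AX mice Il1b read 7.04, 7.05, 6.69, 6.57 and 6.44, and in the CL + VE mice 6.79, 6.09, 6.28, 5.73 and 5.98. The CL + AX mice stood inside or just below the range of the CL mice, and 4 of the 5 CL + VE mice stood below it. Both groups stayed above every NC mouse, as for 8.32% and 7.04% of all genes, CL + VE only just, with a lowest value of 5.73 beside the highest NC value of 5.72. Against NC the difference was 1.26 (SE 0.20, adjusted p = 0.000108 by limma) in CL + AX and 0.68 (SE 0.20, adjusted p = 0.0272) in CL + VE. The second of these calls was lost when either NC mouse 3 or 4, or CL + VE mouse 1 or 3, was left out, with adjusted p values from 0.0568 to 0.0900, and by the methods' t-test (adjusted p = 0.15). From low to high, the group means were 5.50 in NC, 6.17 in CL + VE, 6.76 in CL + AX and 6.96 in CL. Of the neighbours in that order, NC and CL + VE passed the test, and the other steps did not.

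Il1a, which is active without caspase-1, was 4.73, 4.77, 4.66, 5.85 and 4.98 in NC and 5.31, 5.59, 5.64, 5.33 and 5.17 in CL. NC mouse 4 was above all CL mice and the other 4 NC mice were below them. The difference of 0.41 (SE 0.21) had an adjusted p of 0.193 by limma. Without that mouse it was 0.63 with an adjusted p of 0.0159. In CL + AX the signals ran from 4.76 to 5.31 and in CL + VE from 4.93 to 5.35.

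Il18 is the other caspase-1 substrate. It was 7.94, 8.04, 7.91, 8.17 and 7.90 in NC and 8.60, 8.13, 8.55, 8.02 and 8.10 in CL. Here 2 CL mice stood well above NC and the other 3 lay within the NC range. The differences from NC were 0.29 in CL, 0.32 in CL + AX and 0.29 in CL + VE, each with an SE of 0.12 and adjusted p values of 0.122, 0.0764 and 0.138 by limma. With arrays scaled by their trimmed mean in place of quantile normalization, all 3 passed, with 0.37, 0.41 and 0.36.

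The antagonist Il1rn spread more widely than the other genes that rose. It was 4.57, 5.80, 5.08, 6.36 and 4.10 in NC, and 5.77, 7.29, 6.15, 6.82 and 6.36 in CL. In CL + AX it was 7.09, 7.37, 6.23, 7.38 and 6.78, and in CL + VE 5.86, 6.29, 6.15, 5.76 and 7.10. NC mouse 4 stood above the lowest mice of all 3 groups on the CL diet, and NC mouse 2 just above the lowest of CL and of CL + VE. Against NC the difference was 1.30 (SE 0.36, adjusted p = 0.0143 by limma) in CL and 1.79 (SE 0.36, adjusted p = 0.00114) in CL + AX. In CL + VE it was 1.05 (SE 0.36) with an adjusted p of 0.0584, and it passed when NC mouse 2, NC mouse 4 or CL mouse 2 was left out. It also passed as deposited, with median centring, trimmed-mean scaling, dim probe sets left out or the replicate number in the fit. There the adjusted p ran from 0.0200 to 0.0429 by limma. It did not pass with a pseudocount of 16, with only the groups compared in the fit, or by the methods' t-test after adjustment. Nor did it in the gene's other probe sets.

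The 3 probe sets of Il1rn did not give 1 answer. For CL against NC the brightest gave 1.30, while the second gave 0.14 (SE 0.17, adjusted p = 0.636 by limma) and the third gave 0.61 (SE 0.23, adjusted p = 0.0704). For CL + AX against NC the third gave 0.82 (SE 0.23, adjusted p = 0.0150) and the second 0.40 (SE 0.17, adjusted p = 0.104). The sign was the same in all, but the size and the call depended on the probe set. RefSeq gives this gene 3 starts, of which the last 2 lie so close that their windows of 250 bases overlap. Which transcripts each probe set reads was not analysed here.

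The receptor chains moved less. Il1r1, the chain that binds the ligand, was 7.05, 7.26, 7.69, 7.98 and 7.78 in NC and 7.38, 8.13, 7.25, 8.76 and 8.59 in CL, where the mice split widely. In CL + AX it was 8.30, 8.14, 8.03, 8.58 and 8.54, all above the NC mice, as for 8.32% of all genes. The difference between those groups was 0.77 (SE 0.27) with an adjusted p of 0.0534 by limma, and it passed in 7 of the 20 fits that each left out 1 array. It was 0.47 (SE 0.27, adjusted p = 0.268) in CL and 0.42 (SE 0.27, adjusted p = 0.367) in CL + VE. A second probe set of Il1r1 was among the dimmest 0.482% on the array and is not read further.

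Il1rap, the accessory chain, was 11.10, 10.96, 10.75, 11.03 and 11.25 in NC and 11.41, 10.95, 11.39, 11.43 and 11.46 in CL. Apart from CL mouse 2, the CL mice were above every NC mouse. The difference from NC was 0.31 (SE 0.11, adjusted p = 0.0634 by limma) in CL, 0.27 (adjusted p = 0.119) in CL + AX and 0.29 (adjusted p = 0.0996) in CL + VE. Its other 4 probe sets gave -0.06 to 0.52 for CL against NC with none past the test, so the gene's brightest probe set alone came near the threshold.

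Il18bp, the soluble trap for IL-18, rose in all 3 groups on the CL diet by limma. It was 5.39, 5.60, 6.00, 6.27 and 4.61 in NC and 7.37, 7.31, 7.30, 6.90 and 6.57 in CL. It was 6.23, 6.91, 6.35, 6.94 and 7.20 in CL + AX and 7.06, 6.94, 6.94, 6.43 and 7.08 in CL + VE. The NC mice lay below all others except CL + AX mouse 1, which stood just under the highest NC mouse. Of all genes 8.07% lay wholly above NC in CL and 7.04% in CL + VE. The differences of Il18bp from NC were 1.52 (SE 0.25, 2.86-fold, adjusted p = 0.000157 by limma), 1.15 (adjusted p = 0.00213) and 1.31 (adjusted p = 0.00102). By the methods' t-test after adjustment the last 2 were not called (adjusted p = 0.0911 and 0.0942). Il18bp was thus higher in the same livers in which Il18 itself did not pass the test.

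Of the inflammasome genes, the adaptor and the protease rose, while the sensor did not pass. Pycard was 4.89, 4.91, 4.86, 4.61 and 4.42 in NC, and 6.61, 6.99, 5.53, 6.30 and 6.06 in CL. It was 6.84, 6.94, 5.73, 6.68 and 6.20 in CL + AX and 6.67, 6.21, 6.17, 5.90 and 7.31 in CL + VE. No mouse of the 3 groups on the CL diet came within the NC range. Of all genes 8.07% lay wholly above NC in CL, 8.32% in CL + AX and 7.04% in CL + VE. The differences from NC were 1.56 in CL, 1.74 in CL + AX and 1.72 in CL + VE, each with an SE of 0.27 and adjusted p values of 0.000296, 9.53e-05 and 0.000204 by limma. The other 2 probe sets of Pycard were dim, with mean log2 signals of 2.45 and 2.27, and gave 0.20 (SE 0.58) and -1.76 (SE 0.76), neither past the test. The rise of Pycard therefore rests on 1 probe set.

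Casp1 was 4.92, 4.52, 5.26, 4.96 and 4.74 in NC and 6.61, 6.88, 6.18, 6.11 and 6.29 in CL. It was 6.41, 6.44, 5.87, 6.89 and 6.39 in CL + AX and 5.97, 6.33, 6.29, 5.98 and 6.73 in CL + VE. Again no mouse on the CL diet came within the NC range, beside the same shares of all genes as given for Pycard. The differences were 1.54 (2.90-fold), 1.52 and 1.38, each with an SE of 0.20 and adjusted p values of 1.07e-05, 1.13e-05 and 6.59e-05 by limma. The deposited signals were 19.3 to 28.8 in NC and 72.1 to 137 in CL.

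Nlrp3, the sensor, was 4.74, 5.13, 6.21, 5.46 and 5.08 in NC and 5.87, 6.38, 5.25, 5.49 and 5.08 in CL. In CL + AX it was 6.28, 5.91, 5.36, 6.13 and 6.07, and in CL + VE 5.42, 4.91, 5.44, 5.58 and 5.91. All 4 groups overlapped, and NC mouse 3 was higher than every mouse of CL + VE. The difference from NC was 0.29 in CL, 0.63 in CL + AX and 0.13 in CL + VE (SE 0.27 each), with adjusted p values of 0.532, 0.122 and 0.826 by limma. For CL against NC the 95% interval ran from -0.27 to 0.85. The difference between CL + AX and NC passed without NC mouse 3, and with trimmed-mean scaling (0.89, adjusted p = 0.0283).

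The values carry no detection call. As a guide to the floor, 27 genes of other organs (crystallins, pituitary hormones, tooth and sperm proteins and the like) had group means from -0.93 to 6.95, with a median near 2.6 in NC and CL. The NC means of Il1a, Il1b, Il1rn, Il18bp, Nlrp3, Pycard and Casp1 fell inside that range. So did the CL + VE means of all these genes, and their CL + AX means except that of Il1rn. In CL the means of Il1a, Il1rn, Nlrp3, Pycard and Casp1 fell inside it. Among these genes the means above the range were those of Il1b (6.96) and Il18bp (7.09) in CL and of Il1rn (6.97) in CL + AX. Those of Il1b and Il1rn were only just above it. The other means of the raised groups are thus not clear of the floor by this guide. A fold change against a signal near background can understate the change in transcript. The 27 genes of other organs themselves differed by -1.22 to 1.67 in CL against NC, with a median of -0.05. Of them 1 passed, higher, beside 12.0% of all genes. Single differences as large as those of the members thus also occurred among the genes of this guide.

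The supplemented groups were also tested against NC as a whole. In CL + AX the same 5 genes as in CL passed, all higher, beside 12.0% of all genes in that direction. In CL + VE 4 passed, Il1rn being the one that did not, beside 10.2% of all genes. The CL, CL + AX and CL + VE comparisons share the 5 NC arrays, and with them the technical difference described above.

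**Figure D2:**
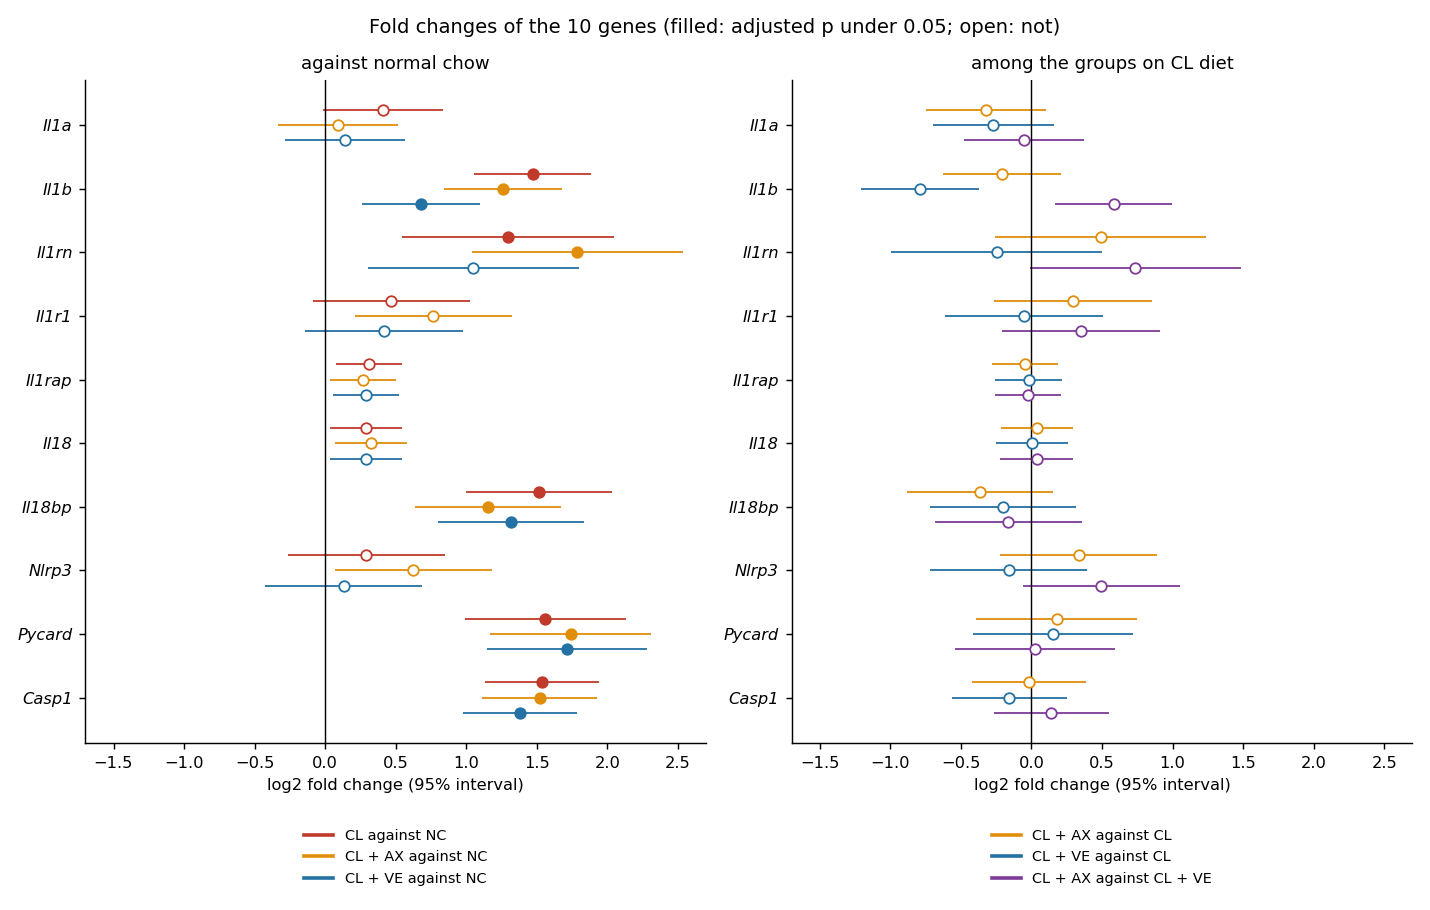
Log2 fold changes of the 10 genes with 95% intervals (horizontal axis), against NC on the left and among the 3 groups on the CL diet on the right. Filled points passed an adjusted p of 0.05 in limma and open points did not. On the left Il1b, Il18bp, Pycard and Casp1 are filled in all 3 comparisons and Il1rn in 2, and on the right no point is filled.

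**Figure D3:**
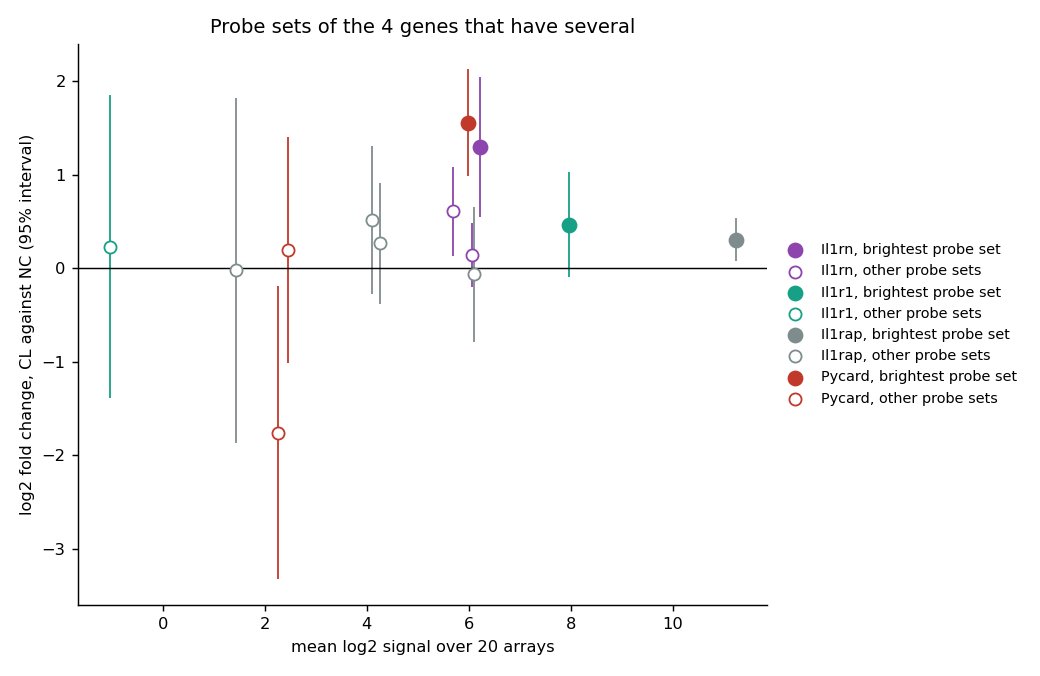
Log2 fold change for CL against NC with its 95% interval (vertical axis) against the mean log2 signal over 20 arrays (horizontal axis) for each probe set of the 4 genes that have several. Filled points are the brightest probe set of a gene. Dim probe sets have wide intervals, and the 3 probe sets of Il1rn, all near a signal of 6, run from 0.14 to 1.30.

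Whether a supplement changed these genes on the CL diet was asked by comparing CL + AX and CL + VE with CL, and with each other. By limma none of the 10 genes passed the adjusted p in any of these 3 comparisons, nor did any of the 18193 genes (0% called); of all probe sets 1 passed in CL + AX against CL and 1 in CL + AX against CL + VE. At an unadjusted p under 0.05 there were 0 members for CL + AX against CL, 1 for CL + VE against CL and 1 for CL + AX against CL + VE, beside 8.05% of all genes in the first. Both were Il1b, lower in CL + VE as 2.7% of all genes were, and higher in CL + AX than in CL + VE as 3.66% were. By the methods' t-test with no adjustment the members were Il1a in the first, Il1a and Il1b in the second and Il1b in the third, beside 8.05%, 6.89% and 9.9% of all genes, so the 1 of 10 in CL + AX against CL and against CL + VE is near the background. With Benjamini-Hochberg adjustment there were none. The first 2 comparisons share the CL arrays, so they are not independent.

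Il1b was lower in CL + VE than in CL by limma's estimate of -0.79 (SE 0.20, 95% interval -1.21 to -0.37, adjusted p = 0.231). That is 1.73-fold in linear signal, with an unadjusted p of 0.000713. The groups overlapped through CL + VE mouse 1, at 6.79. The Actb ratio separated the same groups without overlap, and its part in this difference was not tested. Leaving out any 1 array kept the estimate between -0.94 and -0.68, and no such fit passed the adjusted p. For CL + AX against CL the estimate was -0.21 (SE 0.20, 95% interval -0.63 to 0.21). Between the supplements Il1b was higher in CL + AX by 0.58 (SE 0.20, 95% interval 0.17 to 0.999), with an unadjusted p of 0.00838 and an adjusted p of 0.349. On the signals as deposited this last difference was 1.002 with an adjusted p of 0.0301, a setting in which the median of all probe sets also moved by 0.43.

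Astaxanthin and vitamin E are both lipid-soluble antioxidants, the first a carotenoid with oxygen-bearing end rings and the second carrying a chromanol head, and were fed at the same share of the diet for the same time. Across the 10 genes the difference between the groups that ate them ran from -0.16 for Il18bp to 0.74 for Il1rn, with a median of 0.09. The interval for Il1rn was -0.01 to 1.49 and for Nlrp3 -0.06 to 1.05. For Casp1 it was -0.27 to 0.55, for Pycard -0.54 to 0.59, for Il18 -0.22 to 0.29 and for Il1rap -0.26 to 0.21. The narrowest intervals thus leave room for changes of about 0.3 or less, and the widest for changes above 1. These were 10 of the 60 member tests made, with p values adjusted over all probe sets within each comparison.

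For CL + AX against CL, 5 of the 10 estimates were above 0 and 5 below, from -0.36 for Il18bp to 0.49 for Il1rn. The interval was -0.42 to 0.39 for Casp1 and -0.39 to 0.75 for Pycard, while the rise of these genes on the CL diet was 1.54 and 1.56. For CL + VE against CL, 8 were below 0, from -0.79 for Il1b to 0.16 for Pycard. Casp1 had an interval of -0.56 to 0.25 and Il18bp one of -0.72 to 0.32.

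Neutrophil markers, which mark another cell that makes IL-1 beta and IL-1RA, moved with the supplement groups in size but not past the test. Between CL + AX and CL + VE all 8 measured markers were higher in CL + AX, with a median of 0.87 and 3 at an unadjusted p under 0.05. In that direction 3.66% of all genes were under 0.05. Their summed log2 level was 8.55 to 10.60 in CL + AX and 7.56 to 8.78 in CL + VE, 7.34 to 9.54 in CL and 7.62 to 9.34 in NC. None passed an adjusted p among the groups on the CL diet. Against NC 1 was higher in CL + AX and 1 in CL + VE, where 12.0% and 10.2% of all genes were. The part of these markers' cells in the differences of Il1b and Il1rn was not tested. Over the 20 arrays the deviations from the group means had an r with those of the marker mean of 0.01 for Il1b, 0.29 for Il1rn, 0.54 for Il1r1, 0.49 for Pycard and -0.61 for Il18.

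The other genes of the pathway came from lists chosen with earlier results of these data known. Their counts, set beside the shares of all genes, are therefore descriptions. Of 14 further IL-1 family ligands and receptors 9 were measured, and in CL against NC 2 rose and 1 fell, where 12.0% of all genes rose and 11.3% fell. Il18r1, the receptor chain that binds IL-18, rose by 1.98 (SE 0.39). Il33, an alarmin of the family, rose by 0.96 (SE 0.27). Sigirr, a receptor that dampens IL-1 signalling, fell by 0.41 (SE 0.12). The list had a median of 0.08, beside -0.04 for all probe sets.

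Of 19 genes of IL-1 receptor signalling 16 were measured, and 3 rose and 2 fell, counts near the shares of all genes. Tab2, an adaptor that links TRAF6 to the kinase TAK1, rose by 0.56 (SE 0.09), and Peli1, an E3 ligase, by 0.54 (SE 0.09). Tnfaip3, which encodes the inhibitor A20, rose by 1.40 (SE 0.32). Tollip, an inhibitor of IRAK1, fell by 0.31 (SE 0.07) and Ikbkg, the scaffold of the IKK complex, fell by 0.34 (SE 0.08). The list's median was 0.06.

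Of 24 other inflammasome sensors, adaptors and effectors 19 were measured, and 9 rose and 1 fell, with a median of 1.01. Of all genes 12.0% rose and 11.3% fell. P2rx7, the ATP-gated channel that triggers NLRP3, rose by 1.76 (SE 0.25, adjusted p = 3.95e-05 by limma), and Gsdme, a pore-forming gasdermin, by 1.32 (SE 0.15). Naip5 and Naip2, sensors of bacterial proteins, rose by 1.27 (SE 0.19) and 1.01 (SE 0.15). The Naip genes are near-identical copies, so their probe sets may read each other's transcripts. Nlrp6, a sensor known from epithelium, fell by 1.02 (SE 0.15, adjusted p = 6.50e-05). Against NC, 10 rose and 1 fell in CL + AX, and 9 rose and 1 fell in CL + VE. Of all genes 12.0% rose and 11.3% fell in CL + AX, and 10.2% and 7.27% in CL + VE.

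Of 18 genes known to be induced by IL-1, all measured, 7 rose in CL and none fell, beside 12.0% of all genes that rose, with a median of 0.63. The leading ones were chemokines. Ccl2, which draws monocytes, rose from 0.73 to 5.38 (difference 4.65, SE 0.51), a start so low that the size is uncertain. Cxcl2 and Cxcl1, which draw neutrophils, rose by 3.36 (SE 0.68) and 2.39 (SE 0.42). Zc3h12a, an RNase that cuts inflammatory mRNAs, rose by 1.21 (SE 0.25) and Icam1, an adhesion molecule, by 1.15 (SE 0.20). None of the acute-phase genes on this list passed, namely Saa1, Saa2, Saa3, Lcn2, Orm1, Hp and Crp, with Orm1 at -0.01 and Hp at 0.02. For Lcn2 the estimate was 1.24 with an SE of 0.94. Tnfaip3 is on this list and on that of receptor signalling, so its rise is counted in both. Il1r2 is on this list and on that of the IL-1 family, and it did not pass. No gene of these 4 lists passed the adjusted p in a comparison among the groups on the CL diet.

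**Figure D4:**
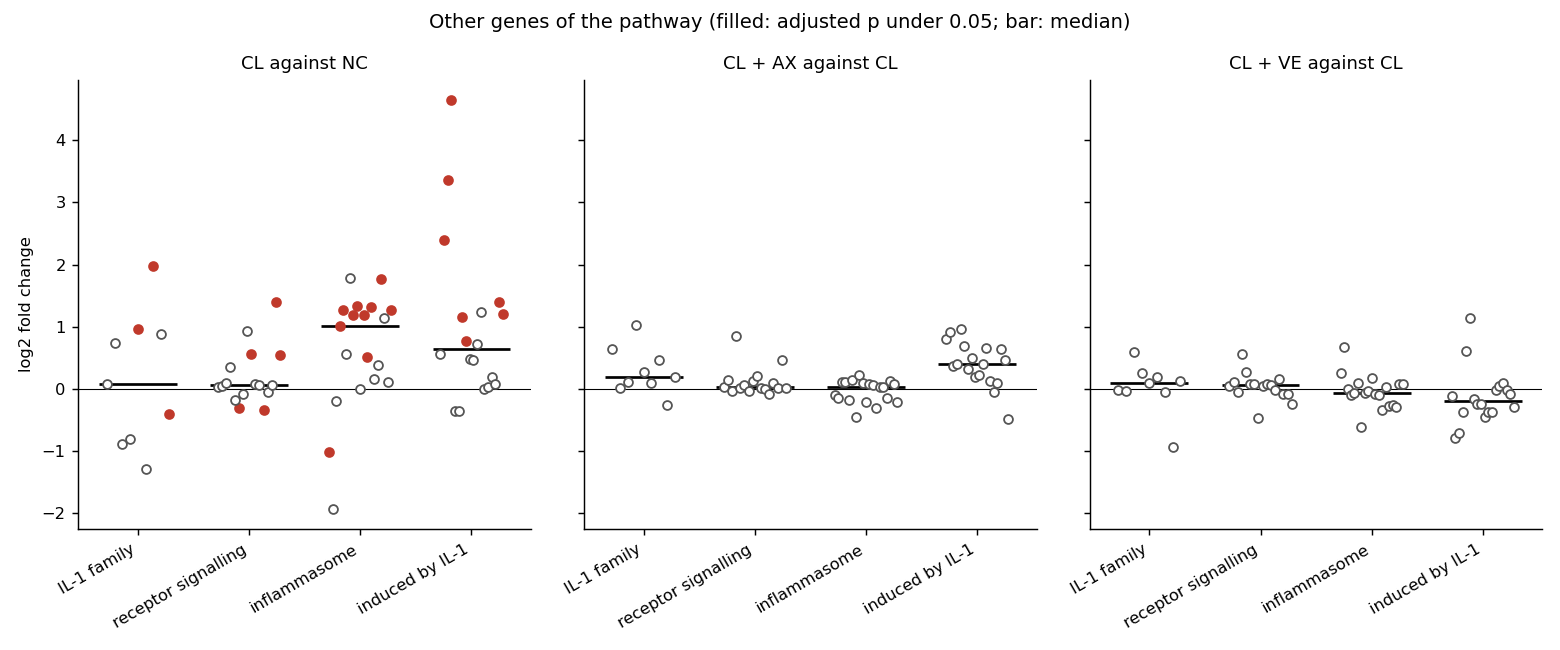
Log2 fold changes (vertical axis) of the measured genes of 4 pathway lists in CL against NC, CL + AX against CL and CL + VE against CL. Each point is 1 gene, filled where it passed an adjusted p of 0.05 in limma, and the bar is the list's median. Filled points are found in CL against NC, where 9 of 19 inflammasome genes rose beside 12.0% of all genes, and in neither supplement comparison.

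Markers of macrophages rose beside these genes. In CL against NC 5 of 6 macrophage markers, 4 of 5 Kupffer cell markers and 3 of 3 measured monocyte markers rose, with medians of 1.61, 1.99 and 2.99. Of all genes 12.0% rose in this comparison. Lyz2, the myeloid lysozyme, rose by 3.41 (SE 0.37), Cd68 by 2.44 (SE 0.41) and Csf1r by 1.80 (SE 0.26). The summed log2 level of the macrophage list was 10.21 to 11.43 in NC, 12.27 to 13.49 in CL, 12.04 to 13.27 in CL + AX and 11.91 to 13.23 in CL + VE. The Kupffer list ran from 9.63 to 11.72 in NC and from 11.96 to 13.15 in CL, and the monocyte list from 7.05 to 7.86 and from 8.74 to 9.82. Itgam and Timd4 were the markers that did not pass. The part of these cells in the rise of Il1b, Il1rn, Il18bp, Pycard and Casp1 was not tested.

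Other cell types moved less evenly. In CL against NC 0 of 8 neutrophil markers passed (1 at an unadjusted p under 0.05). For dendritic cells 1 of 4 passed, for T and NK cells 2 of 6 and for B cells 1 of 3. For endothelium 4 of 6 passed, for stellate cells 4 of 6 and for cholangiocytes 1 of 4. All that passed were higher. Of all genes 12.0% rose, and counts of 1 or 2 in lists this small are not read beyond that share. Of the 8 hepatocyte markers 1 rose and 2 fell, where 12.0% of all genes rose and 11.3% fell. Their summed level stayed between 16.07 and 16.20 in every group.

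How the genes varied among mice of 1 diet was described by their deviations from the group means over the 20 arrays. The 3 inflammasome genes went together, with r = 0.67 for Nlrp3 and Casp1, 0.66 for Pycard and Casp1 and 0.59 for Nlrp3 and Pycard. Without the 2 arrays farthest from the median of the first gene these were 0.54, 0.56 and 0.56. Il1rap went the other way, with r = -0.77 to Nlrp3, -0.75 to Pycard and -0.73 to Casp1, and -0.68, -0.60 and -0.58 without the 2 arrays farthest in Il1rap. Il1b was at most weakly related to the rest, between -0.30 for Il1r1 and 0.22 for Pycard. Without the 2 arrays farthest in Il1b these were -0.41 and 0.05, and r with Nlrp3 was -0.28. All of these values come from the same 20 arrays and share each array's RNA, labelling and normalization, and no test was made.

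**Figure D5:**
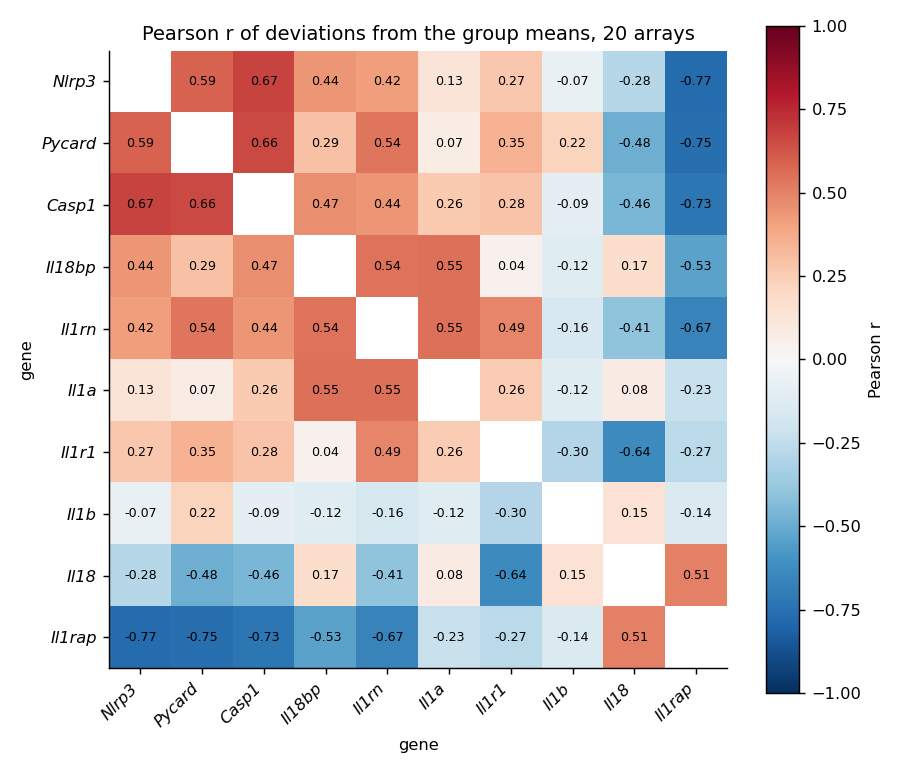
Pearson r between the 10 genes, computed from each mouse's deviation from its group mean over 20 arrays (color scale from -1 to 1, values printed in the cells). Nlrp3, Pycard and Casp1 form a block of r from 0.59 to 0.67, and Il1rap is below 0 with all other genes except Il18.

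The same deviations followed the macrophage markers in part. Against the mean of the 6 macrophage markers r was 0.70 for Nlrp3, 0.68 for Pycard, 0.65 for Casp1, 0.50 for Il1rn, 0.49 for Il18bp and -0.83 for Il1rap. It was 0.28 for Il1b and -0.44 for Il18. The rank correlations with these markers were 0.56 for Nlrp3, 0.55 for Pycard and 0.41 for Casp1. Against the mean of the 5 Kupffer cell markers r was 0.50 for Nlrp3, 0.45 for Il18bp and 0.30 for Il1rn. There it was only 0.20 for Casp1 and 0.05 for Pycard, and -0.34 for Il1rap. Against the 3 monocyte markers r was 0.76 for Il1rn, 0.75 for Pycard and -0.74 for Il1rap. Against the 8 hepatocyte markers r ran from -0.17 for Il1b to 0.28 for Il1rap.

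Of 11398 genes at or above the median signal, the 3 closest to each member by this measure were as follows, with the r of the closest. Nlrp3 was nearest to Plac8 (r = 0.88), which is also on the monocyte list, then Tspan3 and Trpv2. Pycard was nearest to Myo1f (0.88), Atp8b4 and Vat1, and Casp1 to Med15 (0.88), Sirpb1a and Hmox2. Il1b was nearest to Haghl (0.82), Pbx2 and Igbp1, and Il1a to Abcc9 (0.76), Ppic and Ddr2. Il1rn was nearest to Mbnl2 (0.88), Rcn3 and Cln8, and Il18bp to Blvra (0.84), Pold4 and Nudt21. Il1r1 was nearest to Tmc7 (0.88), St3gal5 and Tmem176b. Il1rap was nearest to Ddrgk1 (0.93), Sdc2 and Sdhaf3, and Il18 to Macrod1 (0.92), Ugt2a3 and Albfm1. No gene was among the closest 3 of more than 1 member. With so many candidates and 20 arrays, high values of r arise for any gene, and no test was made.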

How the data were processed

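Total liver RNA of 20 mice was hybridized to 1 array each. The deposited intensity values are linear MAS5 signals, 1 per probe set and array, which the authors computed from the probes; they ran from 0.0139 to 18757 and had not been scaled (trimmed means 92.8 to 169). Here the 64 control probe sets were removed, signals were log2 transformed and quantile normalized, and the 4 groups were fitted in limma 3.58.1 (R 4.3.3; variance trend, 16 residual degrees of freedom) with Benjamini-Hochberg adjustment over 45037 probe sets. Of these, 34945 name 1 gene, 932 several and 9160 none. The median SE of a log2 fold change was 0.36. The fit was run on simulated arrays with independent noise and added shifts. That check held no technical difference of the kind seen in NC, so it cannot speak to it. The numbers of the replicates were not taken to pair the mice. Members and lists were chosen with earlier results of these data known. All members are named, together with up to 5 genes of each list with the smallest p in CL against NC, the 3 closest genes by r, and a few others (acute-phase genes, Itgam, Timd4) after their values were seen. List genes with no probe set of their own were not analysed here. Alternatives covered scaling, a pseudocount of 16, a filter on dim probe sets, the methods' t-test, the replicate block, the arrays in the fit, the probe set and each array left out.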

Additional observations from a re-analysis of the deposited data

Results flagged for a closer look

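In 3 of 40 sets of 5 mice, 1 mouse stood apart from the other 4 by Dixon's criterion, which chance meets in about 1 of 20 sets. Il1a read 5.85 in NC mouse 4, beside 4.66 to 4.98 in the other NC mice. Il1rap read 10.95 in CL mouse 2, beside 11.39 to 11.46. Il18bp read 6.43 in CL + VE mouse 4, beside 6.94 to 7.08.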

How the results depend on the processing

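The counts of members past the adjusted p changed as follows. On the signals as deposited, where the median of all probe sets moved by 0.40 in CL against NC, 0.63 in CL + AX against NC, 0.17 in CL + VE against NC, 0.19 in CL + AX against CL, -0.23 in CL + VE against CL and 0.43 in CL + AX against CL + VE, all 10 passed in CL and in CL + AX against NC, and 1 (Il1b) in CL + AX against CL + VE. With trimmed-mean scaling 8 passed in CL + AX against NC. With the second brightest probe set, for genes that have several, 3 passed in CL and 3 in CL + AX against NC. These were Il1b, Il18bp and Casp1, which have 1 probe set each, so their values are those of the main fit repeated. Il1rn and Pycard, which passed in the main fit and have several, did not pass in either comparison. With the methods' t-test after adjustment 3 passed in CL + AX and 2 in CL + VE against NC, and Il1rn had an adjusted p of 0.166 in CL and 0.0710 in CL + AX against NC. Without adjustment it called 1 in CL + AX against CL, 2 in CL + VE against CL and 1 in CL + AX against CL + VE, beside 3261, 3079 and 3840 of 45037 probe sets. With 1 array left out, 5 to 6 passed in CL and in CL + AX against NC, 3 to 5 in CL + VE against NC and 0 among the groups on the CL diet. Il1rap passed in CL against NC without NC mouse 5, CL mouse 2, CL + AX mouse 3 or CL + VE mouse 5, and with dim probe sets left out (adjusted p = 0.0387). With only NC and CL + VE in the fit, Il1b had an adjusted p of 0.0627.

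Mice of the same number were not taken as pairs in the main fit. For such pairs r was above 0.1 in 7 of 30, with a median of 0.038 and a highest value of 0.31. For pairs of other numbers it was above 0.1 in 11 of 120, with a median of -0.005 and a highest value of 0.41. The share above 0.1 was thus larger among mice of the same number. What the number stands for is not known here, so these values do not settle whether the mice were paired. The replicate block left 5 members in CL against NC and 0 among the groups on the CL diet, and gave 6 in CL + AX against NC (with Il1r1, adjusted p = 0.0283) and 5 in CL + VE against NC (with Il1rn, 0.0367).

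Signs turned in small differences and in second probe sets, dim for Il1r1 and Pycard and of moderate signal for Il1rap (mean 6.11); the cause was not tested. In CL + AX against CL, Il1rap was 0.0428 and Casp1 0.16 as deposited, Casp1 0.0289 with trimmed-mean scaling and Il18 -0.10 with median centring. In CL + VE against CL, Il18 was -0.23 and Pycard -0.11 as deposited, Il1rap 0.0963 after centring on the median, while trimmed-mean scaling gave 0.0366 for Il1rap and -0.00997 for Il18. In CL + AX against CL + VE, Il1a was 0.47, Il1rap 0.22 and Il18bp 0.25 as deposited, Il18 -0.15 and Pycard -0.0960 with median centring and Il1a 0.12 with trimmed-mean scaling. In CL + AX against NC, Il1rap was -0.21 with median centring. With the second probe set, Il1rap was -0.0632 in CL, -0.16 in CL + AX and -0.48 in CL + VE against NC, and 0.32 in CL + AX against CL + VE. Il1r1 was then -1.56 in CL + AX and -1.01 in CL + VE against NC, -1.80 in CL + AX against CL and -0.55 in CL + AX against CL + VE. Pycard was -0.0437 in CL + AX and -0.34 in CL + VE against NC, and -0.24 and -0.53 against CL.

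With 1 array left out, values that crossed 0 ran as follows. In CL + AX against CL they were -0.14 to 0.0143 for Il1rap, -0.0465 to 0.12 for Il18, -0.0149 to 0.36 for Pycard and -0.14 to 0.12 for Casp1. In CL + VE against CL they were -0.25 to 0.13 for Il1r1, -0.11 to 0.0618 for Il1rap, -0.0628 to 0.0812 for Il18, -0.29 to 0.0311 for Nlrp3 and -0.0586 to 0.33 for Pycard. In CL + AX against CL + VE they were -0.11 to 0.0301 for Il1a, -0.11 to 0.0348 for Il1rap, -0.0483 to 0.0978 for Il18 and -0.11 to 0.24 for Pycard. In CL + VE against NC, Nlrp3 was -0.0137 to 0.35.

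Over all probe sets, 7910 passed in CL, 7762 in CL + AX and 5895 in CL + VE against NC, 1 in CL + AX against CL, 1 in CL + AX against CL + VE and 0 in CL + VE against CL. The methods' t-test gave 3444, 3964 and 1632 against NC after adjustment. As deposited 16596 passed in CL + AX against NC, 1886 in CL + AX against CL + VE and 26 in CL + VE against CL. With median centring 1652 passed in CL + AX against CL + VE, and with only the groups compared in the fit 24.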
